A study of Mus musculus with 24 samples.

Results

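The carboxylesterase (Ces) genes Ces1b, Ces1c, Ces1d, Ces1e, Ces1f, Ces1g, Ces2a, Ces2e, Ces3a and Ces4a were followed in liver RNA-seq of mice. They were chosen by symbol and are 10 of the 34945 named genes measured. Polyadenylated RNA was read as strand-marked libraries and is given as TPM, a level corrected for transcript length and scaled to the total of the library. The 24 libraries form 8 groups of 3. Control mice (WT) carried the floxed alleles FoxO1lox/lox and PPARαlox/lox, with no Cre transgene named in the labels. LFKO livers are labelled FoxO1-/-, LPKO livers PPARα-/-, and LFPKO livers FoxO1-/- and PPARα-/-. The deletions were made with Albumin-cre, which acts in hepatocytes and leaves the other liver cells with their alleles. Each genotype was studied on a regular diet (RD) and after a high-fat diet (HFD) of 3 weeks, and all mice were fasted for 4 h. The labels do not say that the 3 libraries of a group are separate mice, so the p-values below speak only of the spread among them, which may be technical.

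Carboxylesterases are serine hydrolases that split ester, thioester and amide bonds in drugs, toxins and lipids. Most of them work in the lumen of the endoplasmic reticulum of the hepatocyte, where several hydrolyse stored triacylglycerol or cholesteryl ester, and others are secreted into plasma. FoxO1 is a transcription factor restrained by insulin, and PPARα is a nuclear receptor that senses fatty acids and drives their oxidation in fasting. The comparisons ask what loss of either factor, of both, and a fat-rich diet changed in this gene family.

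All 10 genes lie on mouse chromosome 8 (GRCm38, GENCODE M21) and are protein coding. The Ces1 genes stand in a row on the minus strand, from Ces1b at chr8:93056728-93080017 to Ces1g at chr8:93302369-93337308. Ces2a at chr8:104734003-104741634, Ces2e at chr8:104926260-104934672, Ces3a at chr8:105048601-105058413 and Ces4a at chr8:105131800-105150109 follow on the plus strand. The final 30 coding bases of each gene are shown because they tell the retained from the secreted kind of enzyme. Capitals mark the last 12 bases before the stop codon, read 5′ to 3′ from GENCODE M21 transcripts. Codons for histidine, any residue, glutamate and leucine in that order form the known signal for retention in the endoplasmic reticulum.
Ces1b: acagaccctactgagcacAGAGAACACAAA
Ces1c: acagaccctactgaacacACAGAACACAAA
Ces1d: aggccatcccacagggaaCATGTTGAGCTC
Ces1e: aagcaactgccgacagaaCACACTGAGCTG
Ces1f: aaacaaccccagccatacCACAATGAGCTG
Ces1g: aggtcatcccatagggaaCATGTTGAACTG
Ces2a: aagggttctcaggacaagCATGCAGAGCTG
Ces2e: aaggggtctcaggagaggCACAAAGAGTTG
Ces3a: cagagaagcaggaaagttCCAGAGGAGCTC
Ces4a: tggagtcagcttcgccaaTCTCAGAAACCT

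Ces1d, Ces1e, Ces1f, Ces1g, Ces2a and Ces2e end with such codons. Ces1b and Ces1c do not, and share 88.7% of their aligned coding bases, the highest identity among the 10 genes. Ces3a has the glutamate and leucine codons without the histidine codon, and Ces4a has neither. Ces2a and Ces2e share 83.1%, Ces1d and Ces1g 81.5%, and Ces3a and Ces4a, the least alike pair, 53.3%.

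Such copies matter for the levels, since reads that fit several genes must be divided between them. Of the 31-base words of each gene's transcripts, 76.1% of Ces1b and 76.7% of Ces1c were found in no other gene. Ces1b shared 19.8% of its words with Ces1c. Ces3a had 65.1% of its own and shared 34.9% with Ces3b, a neighbour that is not among the 10. In Ces2a 69.8% were its own, and 26.9% also occurred in genes outside the family. The own share was 91.3% to 96.4% in Ces1d, Ces1e, Ces1f, Ces1g and Ces2e, and all words of Ces4a were its own. The levels of Ces1b, Ces1c, Ces2a and Ces3a are therefore less certain than the others.

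**Figure D1:**
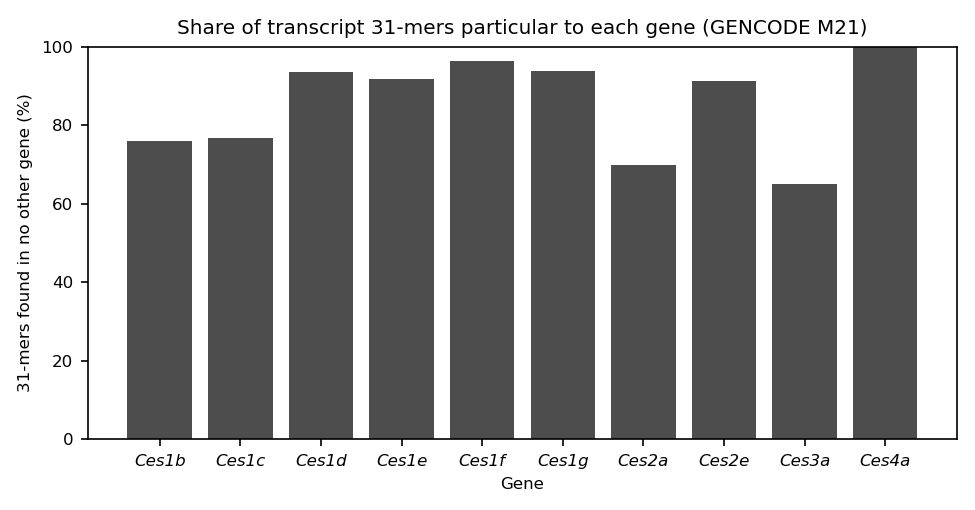
Percent of the 31-base words of each gene's GENCODE M21 transcripts (bar height, axis from 0 to 100%) that occur in no other gene. Ces3a is lowest at 65.1%, and Ces4a shares none of its words.

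The 250 bases before the start site are shown for Ces2a, Ces2e and Ces4a. The test described below called Ces2a and Ces2e lower on the fat-rich diet in every genotype. Ces4a was highest in a single group, HFD WT. The bases are from RefSeq (GRCm38.p6), on the gene's own strand. RefSeq windows were matched for 7 of the 10 genes. Capitals mark AGGTCA, the hexamer that nuclear receptors bind, on either strand.
Ces2a, chr8:104733753-104734002, plus strand: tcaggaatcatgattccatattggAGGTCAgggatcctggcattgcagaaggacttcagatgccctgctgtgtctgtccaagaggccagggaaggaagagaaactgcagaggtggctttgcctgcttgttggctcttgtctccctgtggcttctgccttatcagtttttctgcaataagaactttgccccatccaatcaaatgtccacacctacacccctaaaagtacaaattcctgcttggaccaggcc
Ces2e, chr8:104926010-104926259, plus strand: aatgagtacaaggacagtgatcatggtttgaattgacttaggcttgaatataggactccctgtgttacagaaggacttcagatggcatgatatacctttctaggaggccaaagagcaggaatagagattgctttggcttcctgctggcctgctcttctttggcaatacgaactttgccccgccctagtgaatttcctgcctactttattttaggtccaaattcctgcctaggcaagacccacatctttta
Ces4a, chr8:105131550-105131799, plus strand: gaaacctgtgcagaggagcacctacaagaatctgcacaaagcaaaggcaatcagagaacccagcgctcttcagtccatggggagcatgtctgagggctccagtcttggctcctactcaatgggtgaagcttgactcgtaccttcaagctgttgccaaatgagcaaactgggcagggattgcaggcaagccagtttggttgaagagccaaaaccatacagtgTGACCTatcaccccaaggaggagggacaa

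In Ces2a the hexamer begins 226 bases before the start site, and in Ces4a it lies on the opposite strand, 29 bases before it. It was present in 16.3% of the 32851 RefSeq windows of 300 bases (250 before and 50 after a start site), both strands counted. The FoxO site GTAAACA, present in 3.65% of windows, the insulin response element CAAAACA, in 6.28%, and a direct repeat of AGGTCA with 1 base between the copies, in 0.0396%, were not found in the 8 windows of these 7 genes. TATAAA, in 13.6% of windows with both strands counted, was found in Ces1g 26 bases before the start site. It lies on the opposite strand, and the gene's own strand reads TTTATA there. These are matches of letters and were not tested as binding sites.

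The libraries were checked before the family was compared. Foxo1 was at 0.250 to 0.484 TPM in the 12 libraries labelled FoxO1-/- and at 4.06 to 9.94 TPM in the other 12. Ppara was at 57.5 to 87.3 TPM in the 12 libraries labelled PPARα-/- and at 37.1 to 68.8 TPM in the rest, so its level does not check that label. TPM keep no read counts, and the depth is unknown. The 6 measured hepatocyte markers summed to 40952 to 95369 TPM, adipocyte markers to 3.14 to 9.01 TPM with Lep at 0, kidney tubule markers to at most 0.208 TPM and exocrine pancreas markers to at most 0.0462 TPM. Markers of enterocytes summed to 33.8 to 99.2 TPM with Alpi at 0, of Kupffer cells to 36.3 to 140 TPM, of endothelium to 22.7 to 49.9 TPM, of stellate cells to 42.4 to 143 TPM and of cholangiocytes to 25.3 to 86.7 TPM. A mean of 1 TPM was reached by 1 of 5 enterocyte, 2 of 6 cholangiocyte and 1 of 6 adipocyte markers. It was reached by 8 of 8 Kupffer cell, 6 of 6 endothelium and 5 of 6 stellate cell markers. In bulk tissue, fewer cells of a type and less RNA per cell cannot be told apart. Hepatocytes also make major urinary proteins, and their Mup genes took 9.44% ± 1.99 of TPM in RD WT, 5.98% ± 0.907 in RD LFKO, 11.8% ± 2.32 in RD LPKO and 13.2% ± 0.689 in RD LFPKO livers (SD, n = 3). On the HFD they took 25.1% ± 5.33 in WT, 11.7% ± 5.65 in LFKO, 17.3% ± 7.58 in LPKO and 24.2% ± 4.12 in LFPKO livers (SD, n = 3).

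Ces3a and Ces1c were the abundant members of the family. Over the 24 libraries Ces3a averaged 1444 TPM (1246 to 1824) and Ces1c, a plasma esterase, 1267 TPM (675 to 2227). Their ranges overlapped. Ces1d, the main triacylglycerol hydrolase of the mouse liver family, averaged 304 TPM (54.8 to 646) and Ces1f, another lipid hydrolase, 288 TPM (71.5 to 460). Ces2a averaged 148 TPM (67.1 to 310), Ces1b 102 TPM (33.6 to 194), Ces2e 92.9 TPM (46.1 to 148), Ces1e 73.2 TPM (19.5 to 146) and Ces1g 59.7 TPM (7.93 to 203). These 5 overlapped with their neighbours in that order. Ces4a averaged 1.62 TPM (0.0969 to 11.0) and was below all others in every library. The highest library was 25.7 times the lowest for Ces1g, 11.8 times for Ces1d and 1.46 times for Ces3a, the narrowest range of the 10. All carboxylesterase genes summed to 0.398% ± 0.0271 of TPM in RD WT and 0.544% ± 0.0227 in RD LFKO livers (SD, n = 3). On the HFD that share was 0.338% ± 0.0371 in WT and 0.425% ± 0.0563 in LFKO livers (SD, n = 3).

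**Figure D2:**
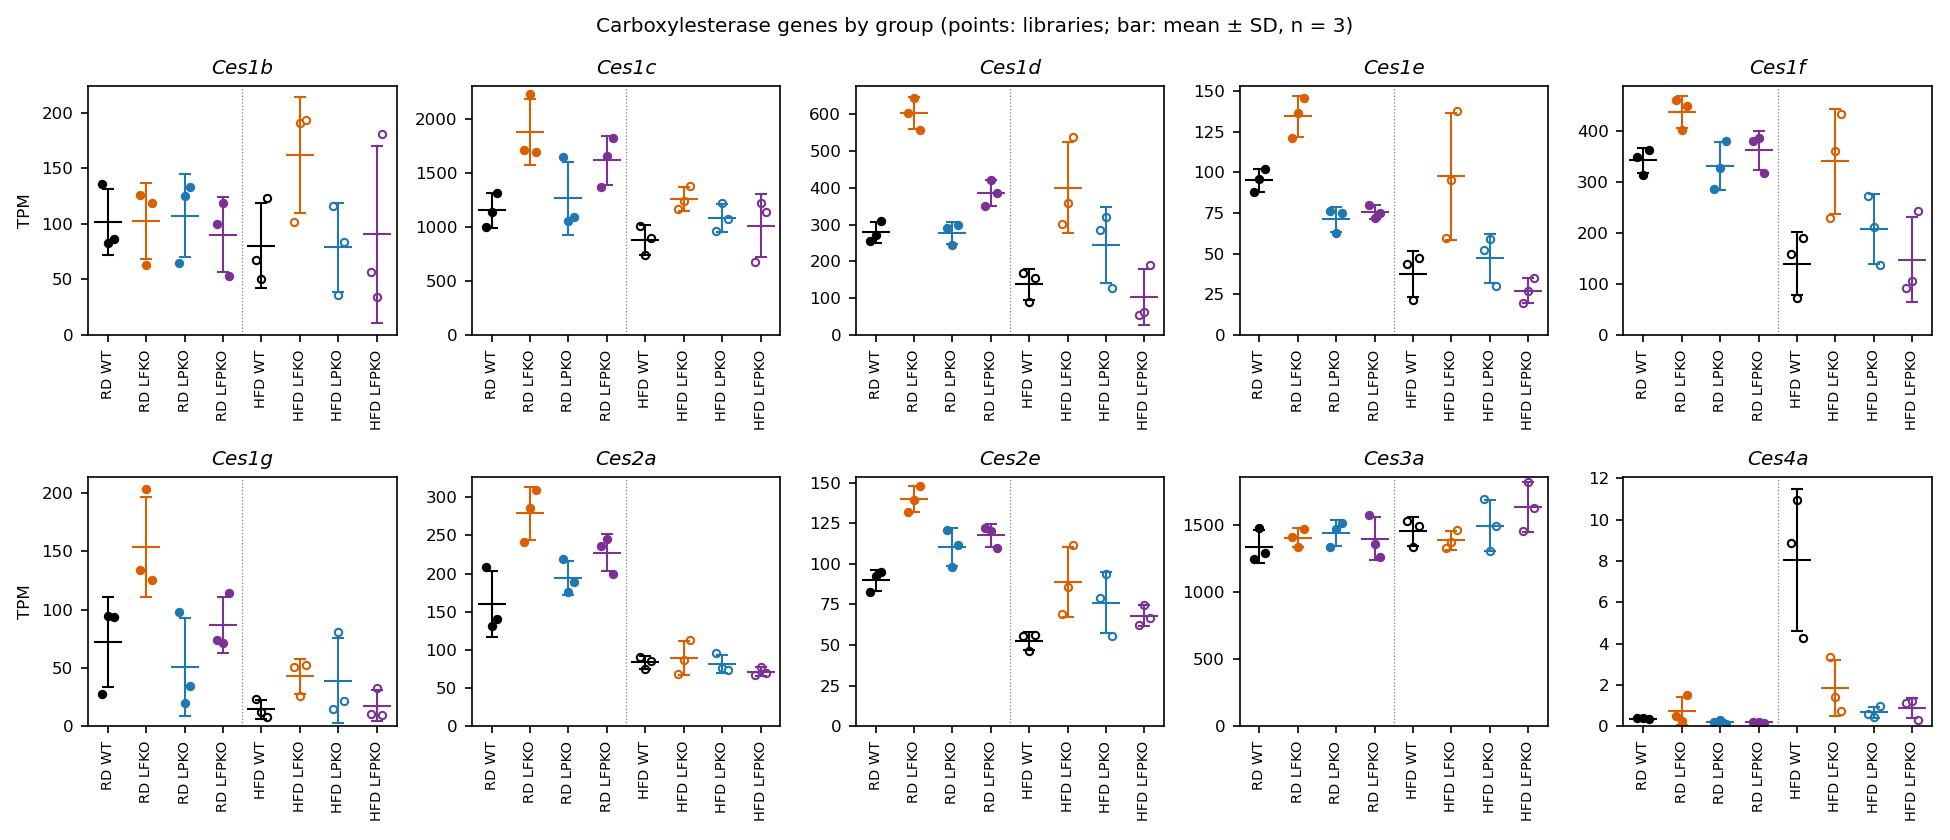
TPM of the 10 genes (vertical axes, each from 0) in the 8 groups, with a point per library and the mean ± SD (n = 3); filled points are RD and open points HFD. Ces3a stays between 1246 and 1824 TPM, Ces1d reaches 646 TPM in RD LFKO, and Ces4a reaches 11.0 TPM in HFD WT and at most 3.35 TPM in the 21 other libraries.

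Differences between groups were tested with limma on log2(TPM + 1) across 10551 genes. They are given below as log2 fold change ± SE, a scale that understates the change of weakly expressed genes such as Ces4a. A gene is called changed at an adjusted p under 0.05. Counts of genes at an unadjusted p under 0.05 are descriptions. The share of all genes at that level was not computed, so these counts cannot be set against it. Every comparison with WT on a diet uses the same 3 WT libraries, so these comparisons are not independent of each other. On the HFD the median of all genes was itself shifted: it was lower than on the RD by 0.29 in WT (log2 fold change -0.29), and was -0.11 in LFKO, -0.22 in LPKO and -0.23 in LFPKO livers. It was 0.21 for LFKO against WT, 0.11 for LPKO against WT and -0.13 for LFPKO against LFKO on the HFD, and 0.18 for LFKO by diet. Rescaling by median-of-ratios factors brings these medians to about 0, and the rescaled values are given where they alter a call. The percentages of all genes called higher or lower beside member and list counts are without rescaling. Counts after rescaling cannot be set against them. With rescaling the genes called in all went from 3250 to 823 for the diet in WT and from 2773 to 1411 in LFPKO. On the HFD they went from 1420 to 450 for LFKO against WT and from 1117 to 1147 for LFPKO against LFKO. They went from 499 to 727 for LPKO and from 326 to 582 for LFPKO against WT on that diet. For LFPKO against LPKO there they went from 37 to 126. On the RD they went from 176 to 389 for LFKO, from 617 to 952 for LPKO and from 786 to 1322 for LFPKO against WT. For LFPKO against LFKO on the RD they went from 536 to 885. For the diet they went from 997 to 1147 in LFKO and from 1910 to 701 in LPKO.

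On the regular diet, Ces2a was the member that passed the test for loss of FoxO1. Ces2a, a hydrolase of acylglycerols and of drugs, had 209, 131 and 139.9 TPM in the RD WT livers and 242, 286 and 309.6 TPM in RD LFKO, and rose (0.82 ± 0.18, adjusted p = 0.0179). It was 1 member called of 10, where 1.07% of all genes tested were called higher and 0.597% lower. The median log2 fold change was 0.56 over the members and 0.03 over all genes tested. Ces1d had 254, 271 and 310.3 TPM in the RD WT livers and 604, 646 and 559 TPM in RD LFKO (1.11 ± 0.37, adjusted p = 0.143). The lowest LFKO library lay above the highest WT library for Ces1d, but the change was not called. Ces1c was at 1151 ± 161 TPM in WT and 1875 ± 305 TPM in LFKO (0.70 ± 0.21, adjusted p = 0.0929; SD, n = 3) and Ces2e at 90.0 ± 6.51 and 139.9 ± 7.98 TPM (0.63 ± 0.16, adjusted p = 0.0538; SD, n = 3).

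Of the 10 members 4 had an unadjusted p under 0.05, a count without the share of all genes beside it. After rescaling, Ces1c (0.66, adjusted p = 0.0429) and Ces2e (0.59, adjusted p = 0.00418) were called as well as Ces2a (0.78, adjusted p = 0.00957). Ces2a lost its call without RD WT replicate 2 or 3, or RD LFKO replicate 2 or 3, and its change lay between 0.70 and 1.03 over the 6 fits that left out 1 library. With RD WT and RD LFKO fitted alone, 4 members were called in place of 1, and 431 genes in all in place of 176. The hepatocyte marker sum was 67455 to 70906 TPM in the RD WT livers and 88543 to 95369 TPM in RD LFKO. Its part in these differences was not tested.

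Loss of PPARα alone on the RD left no member called, where 3.52% of all genes were called higher and 2.33% lower by limma. None of the 10 had an unadjusted p under 0.05 either. Ces1e, an esterase of the endoplasmic reticulum, had 87.9, 95.7 and 102 TPM in the RD WT livers and 76.2, 62.4 and 74.9 TPM in RD LPKO, which did not overlap (-0.42 ± 0.29, adjusted p = 0.481). Loss of both factors also gave no call by limma, against 4.00% of genes called higher and 3.45% lower, and 3 members had an unadjusted p under 0.05. Ces2a (0.53 ± 0.18, adjusted p = 0.0736) was called after rescaling (0.51, adjusted p = 0.0376), as was Ces2e (0.37, adjusted p = 0.0297).

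Against RD LFKO livers, the RD LFPKO livers had no called member, with 1.95% of all genes called higher and 3.13% lower by limma and 1 member at an unadjusted p under 0.05. Ces1e was at 121, 137 and 146 TPM in RD LFKO and 80.1, 72.0 and 74.7 TPM in RD LFPKO livers (-0.82 ± 0.29, adjusted p = 0.120). These groups did not overlap, and Ces1e was called after rescaling (-0.79, adjusted p = 0.0305). Against RD LPKO livers no member was called by limma and none had an unadjusted p under 0.05, where 0.0190% of genes were called higher and 0.104% lower.

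On the high-fat diet, Ces1d, Ces1e, Ces1f and Ces2e were higher and Ces4a was lower in LFKO than in WT livers. Ces1d had 169, 88.6 and 154 TPM in HFD WT and 303, 358 and 539.7 TPM in HFD LFKO livers, and rose (1.55 ± 0.37, adjusted p = 0.0130). Ces1e had 43.7, 21.3 and 47.1 TPM in HFD WT and 59.8, 95.2 and 138 TPM in HFD LFKO livers, and rose (1.36 ± 0.29, adjusted p = 0.00716). Ces1f had 158, 71.5 and 189.7 TPM in HFD WT and 229, 359.5 and 433 TPM in HFD LFKO livers, and rose (1.35 ± 0.34, adjusted p = 0.0163). In all 3 genes the groups stood apart, and within HFD LFKO the order was replicate 3 highest and replicate 1 lowest.

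Ces2e rose too, from 52.6 ± 5.58 to 89.0 ± 21.4 TPM (SD, n = 3; 0.73 ± 0.16, adjusted p = 0.00988). Ces4a fell (-1.69 ± 0.31, adjusted p = 0.00312). It passed the filter of a mean of 1 TPM because of HFD WT, so its being tested and counted depends on this difference. These 4 higher and 1 lower members compare with 12.7% of all genes called higher and 0.730% lower, and all 5 calls held after rescaling, with Ces1d at 1.31 and Ces1e at 1.12. The median log2 fold change was 0.89 over the members and 0.21 over all genes tested. Rescaling changed the share of higher genes among all called from 94.6% to 59.8%, and the genes called in all from 1420 to 450. The calls of Ces1d, Ces1e, Ces1f and Ces2e were lost without HFD WT replicate 2 and again without HFD LFKO replicate 3, and that of Ces1f also without HFD LFKO replicate 2, with adjusted p of up to 0.136. A fit of these groups alone called 1 member, Ces1d, in place of 5, and 140 genes in all in place of 1420. Ces1g, a lipid hydrolase near Ces1d in sequence, was at 23.5, 11.9 and 7.93 TPM in WT and 50.6, 25.6 and 52.6 TPM in LFKO livers without a call (1.57 ± 0.63, adjusted p = 0.0961). Ces2a, the gene called on the RD, was at 90.7, 74.4 and 85.7 TPM and 68.8, 86.1 and 113 TPM, which overlapped (0.07 ± 0.18, adjusted p = 0.805).

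The Mup share ran opposite to these Ces1 genes and to other members. Over the 24 libraries the Pearson r of log2(TPM + 1) with the Mup share was -0.96 for Ces1e, -0.93 for Ces1f, -0.90 for Ces1d and -0.88 for Ces2e. It was -0.77 for Ces1g, -0.73 for Ces1c, -0.71 for Ces2a and -0.36 for Ces1b, against 0.27 for Ces3a and 0.60 for Ces4a. Both sides of each r come from the same library and its total, so they are given as descriptions. With the Mup and mitochondrial transcripts left out and the rest rescaled, the LFKO change on the HFD was 1.26, adjusted p = 0.0287 for Ces1d, 1.08, adjusted p = 0.00900 for Ces1e and 1.06, adjusted p = 0.0390 for Ces1f by limma. Hepatocyte markers summed to 42313 to 55599 TPM in HFD WT and 67787 to 91947 TPM in HFD LFKO livers, with 1 of 6 called higher, and stellate cell markers to 42.4 to 63.3 and 84.8 to 94.7 TPM, with 2 of 5 tested called higher. Their part was not tested.

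**Figure D3:**
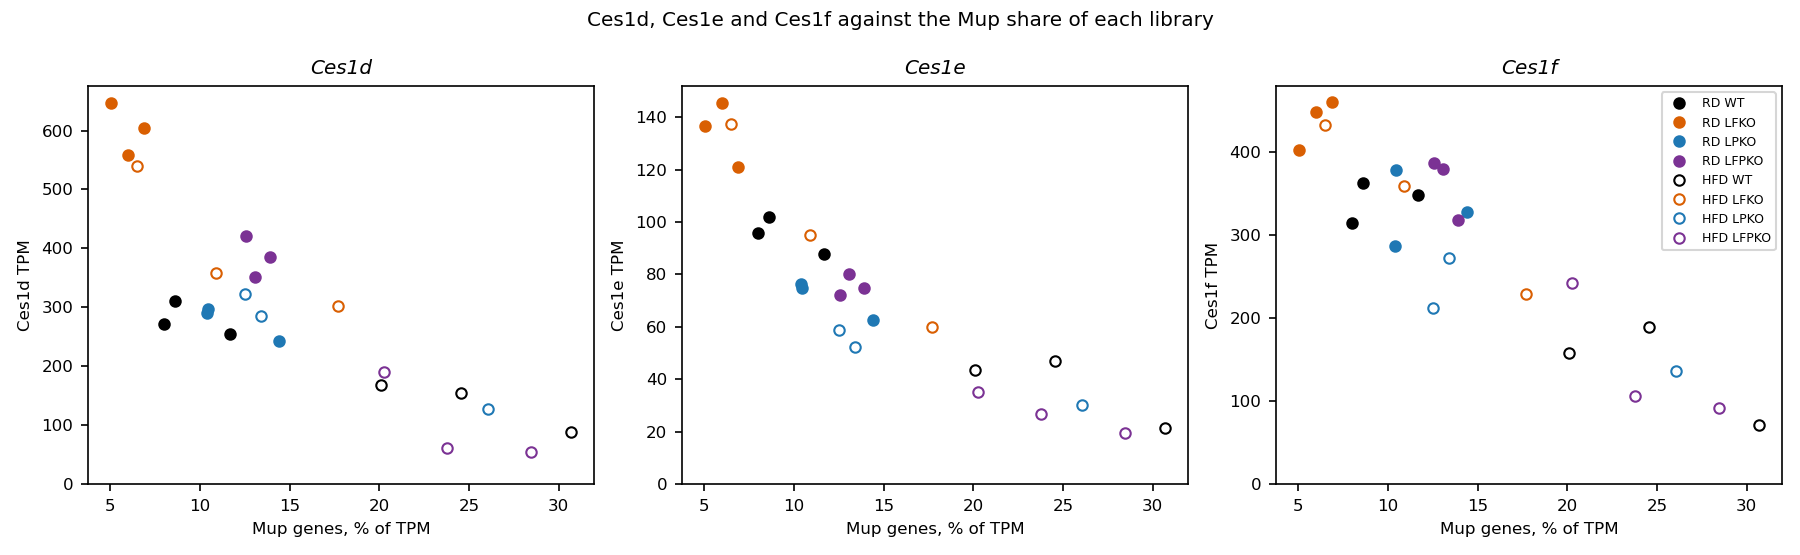
TPM of Ces1d, Ces1e and Ces1f (vertical axes from 0) against the percent of TPM in Mup genes (horizontal axis) in each of 24 libraries; colours are genotypes, filled points RD, open points HFD. The points run from upper left to lower right in all 3 panels, with r of -0.90 for Ces1d, -0.96 for Ces1e and -0.93 for Ces1f.

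On the HFD, Ces1d, Ces1e and Ces1f were lower in LFPKO than in LFKO livers. Against HFD WT livers, HFD LFPKO livers overlapped in all 3 genes and none was called (Ces1d -0.61 ± 0.37, adjusted p = 0.491, Ces1e -0.41 ± 0.29, adjusted p = 0.580, Ces1f 0.05 ± 0.34, adjusted p = 0.972). Ces1d had 54.8, 61.2 and 191 TPM in HFD LFPKO livers and fell against HFD LFKO (-2.16 ± 0.37, adjusted p = 5.33e-04). Ces1e had 19.5, 26.7 and 35.0 TPM and fell as well (-1.77 ± 0.29, adjusted p = 3.27e-04). HFD LFKO and HFD LFPKO libraries did not overlap. For these 2 genes the calls held in each fit that left out 1 library. Ces1f, at 92.1, 106 and 243 TPM, overlapped with HFD LFKO and fell (-1.30 ± 0.34, adjusted p = 0.0163), but lost its call when HFD LFKO replicate 2 or 3, or HFD LFPKO replicate 1 or 2, was left out. No member was called higher where 1.85% of genes were, and 3 were called lower where 8.74% were. After rescaling the 3 calls held and Ces3a was called higher (0.39, adjusted p = 0.0207), while the share of higher genes among all called moved from 17.5% to 42.7%.

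Between HFD LFPKO and HFD LPKO livers no member was called by limma, with 0.0663% of genes called higher and 0.284% lower, and 2 members had an unadjusted p under 0.05. Ces1d (-1.39 ± 0.37, adjusted p = 0.124) passed after rescaling (-1.34, adjusted p = 0.0481). Its levels were 286, 322 and 128 TPM in HFD LPKO livers, and the groups overlapped. Mup shares of 17.3% ± 7.58 and 24.2% ± 4.12 (SD, n = 3) accompanied HFD LPKO and HFD LFPKO.

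Ces4a was highest in HFD WT livers, above all other groups. It was at 0.384, 0.390 and 0.331 TPM in the RD WT and 8.89, 11.0 and 4.26 TPM in HFD WT livers. HFD LFKO livers had 3.35, 1.41 and 0.757 TPM, HFD LPKO 0.607, 0.455 and 0.958 TPM and HFD LFPKO 1.12, 1.23 and 0.325 TPM. The 3 HFD WT libraries, at 4.26 to 11.0 TPM, were above all 21 others, at 0.0969 to 3.35 TPM. Ces4a passed the filter of a mean of 1 TPM because of HFD WT, where it is high, so that its being tested depends on this difference.

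Against HFD WT, Ces4a fell in LPKO (-2.36 ± 0.31, adjusted p = 6.60e-05) and in LFPKO livers (-2.21 ± 0.31, adjusted p = 1.26e-04). It was the single member called in either comparison. In LPKO 3.60% of genes were called higher and 1.13% lower, and in LFPKO 1.62% higher and 1.47% lower. These Ces4a calls held in each fit that left out 1 library. Those fits kept the genes that passed the filter on all 24 libraries, so they do not recheck how Ces4a came to be tested. Rescaling added Ces2e in LPKO livers (0.37, adjusted p = 0.0422), where the share of higher genes among all called moved from 76.2% to 53.4%. In LFPKO that share moved from 52.5% to 40.5%. The stellate cell markers summed to 42.4 to 63.3 TPM in HFD WT and to 61.4 to 97.2 TPM in the other HFD groups, and adipocyte markers to 5.61 to 8.10 TPM in HFD WT. Their part in the Ces4a level was not tested.

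In WT livers 6 of the 10 members were called lower and 1 higher on the HFD. After rescaling 4 were lower and 2 higher, where 823 genes were called in all and 47.5% of these were higher. Ces1g, known for its part in hepatic lipid secretion, went from 27.4, 94.7 and 93.8 TPM on the RD to 23.5, 11.9 and 7.93 TPM on the HFD and fell (-2.17 ± 0.63, adjusted p = 0.0171). Ces1d (-1.07 ± 0.37, adjusted p = 0.0359), Ces1e (-1.40 ± 0.29, adjusted p = 0.00277) and Ces1f (-1.40 ± 0.34, adjusted p = 0.00699) fell, with all HFD libraries below all RD libraries. Ces2a (-0.90 ± 0.18, adjusted p = 0.00198) and Ces2e (-0.77 ± 0.16, adjusted p = 0.00323) fell, and Ces4a rose (2.64 ± 0.31, adjusted p = 1.55e-05). Ces4a passed the filter because of HFD WT, so its being tested and counted depends on this rise. Without rescaling, these 6 lower and 1 higher members stand beside 29.8% of all genes called lower and 1.05% higher. Rescaling cut the genes called in all from 3250 to 823, so the rescaled counts cannot be set against these percentages. The median log2 fold change was -0.84 over the members and -0.29 over all genes tested.

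Relative to the median gene the diet's effect in WT was smaller. After rescaling, Ces1e (-1.07, adjusted p = 0.00610), Ces1f (-1.06, adjusted p = 0.0289), Ces2a (-0.56, adjusted p = 0.0334) and Ces2e (-0.43, adjusted p = 0.0185) were still called lower. Ces1d (-0.73, adjusted p = 0.187) and Ces1g (-1.85, adjusted p = 0.0757) were not, and Ces3a was called higher (0.46, adjusted p = 0.0124). The share of higher genes among all called moved from 3.42% to 47.5%. Without HFD WT replicate 2 the calls of Ces1d, Ces1f and Ces1g were lost, and those of Ces1d and Ces1g also without RD WT replicate 2 or 3. Ces1g lost its call without HFD WT replicate 3 as well. With Mup and mitochondrial transcripts left out, Ces1d (-0.70, adjusted p = 0.196) and Ces1g (-1.85, adjusted p = 0.0838) were not called, and Ces1e (-1.05, adjusted p = 0.00706) and Ces2a (-0.54, adjusted p = 0.0290) were called lower. The hepatocyte marker sum was 67455 to 70906 TPM on the RD and 42313 to 55599 TPM on the HFD, with 3 of 6 markers called lower. Stellate cell markers summed to 96.0 to 143 TPM on the RD and 42.4 to 63.3 TPM on the HFD, with 4 of 5 tested called lower. The part of either in these differences was not tested.

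Ces2a and Ces2e were the members called lower on the HFD in all 4 genotypes. The mean TPM of Ces1c, Ces1d, Ces1e, Ces1f and Ces1g was also lower on the HFD in each genotype, without a call in each. Ces2a fell in LFKO (-1.65 ± 0.18, adjusted p = 1.14e-05), LPKO (-1.24 ± 0.18, adjusted p = 3.19e-04) and LFPKO livers (-1.65 ± 0.18, adjusted p = 1.03e-05). In the 12 HFD libraries it lay between 67.1 and 113 TPM, below the 12 RD libraries at 131 to 310 TPM. Ces2e fell in LFKO (-0.67 ± 0.16, adjusted p = 0.0146), LPKO (-0.56 ± 0.16, adjusted p = 0.0256) and LFPKO livers (-0.78 ± 0.16, adjusted p = 0.00205). After rescaling the Ces2a calls held in all 4 genotypes, and the Ces2e call was lost in LPKO (-0.30, adjusted p = 0.105). The Ces2e call was also lost without RD LFKO replicate 2 or 3 or HFD LFKO replicate 1, and without RD LPKO replicate 1 or 3 or HFD LPKO replicate 3.

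In LFKO and in LPKO livers Ces2a and Ces2e were the sole members called lower on the HFD, beside 8.34% and 17.3% of all genes called lower. No member was called higher there, beside 1.11% and 0.777% of genes. The share of higher genes among all called moved with rescaling from 11.7% to 39.4% in LFKO and from 4.29% to 45.2% in LPKO. In LFPKO livers 7 members were called lower and none higher, beside 24.9% of genes lower and 1.35% higher. With a pseudocount of 0.1, 8 were called, 7 lower and 1 higher, with 2757 genes called in all. Ces4a was not called in LPKO or LFPKO under the main settings, but its HFD libraries stood above its RD libraries in both. In LPKO it lay at 0.0969 to 0.278 TPM on the RD and 0.455 to 0.958 TPM on the HFD. In LFPKO it lay at 0.166 to 0.204 and 0.325 to 1.23 TPM. Ces1d fell from 351, 420.5 and 386 TPM on the RD to 54.8, 61.2 and 191 TPM on the HFD (-2.14 ± 0.37, adjusted p = 5.42e-04), and Ces1g from 86.6 ± 24.1 to 17.7 ± 13.2 TPM (SD, n = 3; -2.41 ± 0.63, adjusted p = 0.00886). Ces1e (-1.48), Ces1f (-1.43) and Ces1c (-0.71 ± 0.21, adjusted p = 0.0162) were the others. The Ces1c call was lost after rescaling (-0.44, adjusted p = 0.108) and without RD LFPKO replicate 3 or HFD LFPKO replicate 1, and the Ces1g call without HFD LFPKO replicate 1. Ces3a was then called higher (0.50, adjusted p = 0.00474), and the share of higher genes among all called moved from 5.12% to 40.5%.

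**Figure D4:**
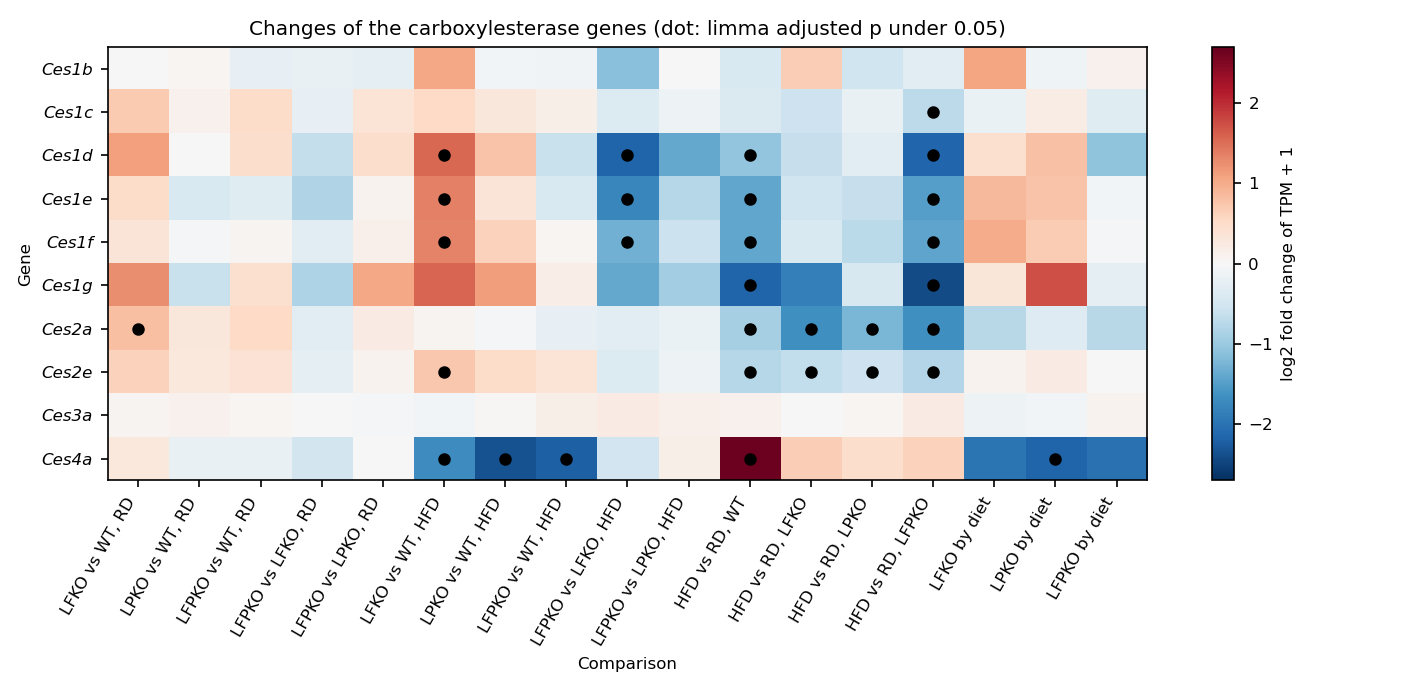
Log2 fold change of TPM + 1 (colour, red above 0 and blue below) for the 10 genes (rows) in 17 comparisons (columns, first-named group minus second, the last 3 being interactions), with a dot where the limma adjusted p is under 0.05. Ces2a and Ces2e carry dots for HFD against RD in all 4 genotypes, Ces1d, Ces1e and Ces1f in WT and LFPKO, and Ces3a and Ces1b in none.

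Whether a deletion acted differently on the diets was tested by an interaction term, the change on the HFD minus that on the RD. Ces4a passed for LPKO (-2.17 ± 0.44, adjusted p = 0.0442), the single member called where 0.114% of genes were called higher and 0.0569% lower. That call was lost with a pseudocount of 0.1 (-2.64, adjusted p = 0.275), without the filter (-2.17, adjusted p = 0.122), and in 10 of 12 fits that left out 1 library. For LFKO (-1.98 ± 0.44, adjusted p = 0.0970) and LFPKO (-2.01 ± 0.44, adjusted p = 0.114) Ces4a was not called. In LFKO by diet no member was called by limma, 0% of genes were higher and 0.00948% lower, and 3 members had an unadjusted p under 0.05. In LFPKO by diet none was called, with 0% of genes higher and 0.0284% lower and 2 members at an unadjusted p under 0.05. The Ces1d change of LFKO was not called different between the diets (0.43 ± 0.52, adjusted p = 0.728), nor was that of Ces2a (-0.75 ± 0.25, adjusted p = 0.281).

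Ces3a was called in no comparison without rescaling. It was at 1246, 1479 and 1289 TPM in the RD WT and 1534, 1333 and 1491 TPM in HFD WT livers. The 95% interval of its log2 change was -0.17 to 0.31 for LFKO against WT on the RD and -0.12 to 0.36 for HFD against RD in WT. Ces3b, with which it shares words, had 205, 337 and 265 TPM in the RD WT and 368, 313 and 345 TPM in HFD WT livers.

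Within groups, the Ces1 genes did not all vary together. Ces1d, Ces1e and Ces1f went together, with a Pearson r of 0.92 to 0.93 between any pair over 24 libraries and 0.83 to 0.87 for their deviations from group means. Ces1b and Ces1g went opposite ways, with an r of -0.77 for the deviations from group means over 24 libraries. Among RD WT livers, Ces1b was at 136, 82.8 and 86.6 TPM and Ces1g at 27.4, 94.7 and 93.8 TPM, so that the library high in Ces1b was low in Ces1g. The library lowest in Ces1b was the highest in Ces1g in 6 of 8 groups, and the one highest in Ces1b was the lowest in Ces1g in 5 of 8. The points share libraries and the total of each, and no test was made. Ces1b was called in no comparison, and its libraries spread widely within groups, as in HFD LFPKO with 56.3, 33.6 and 181 TPM.

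**Figure D5:**
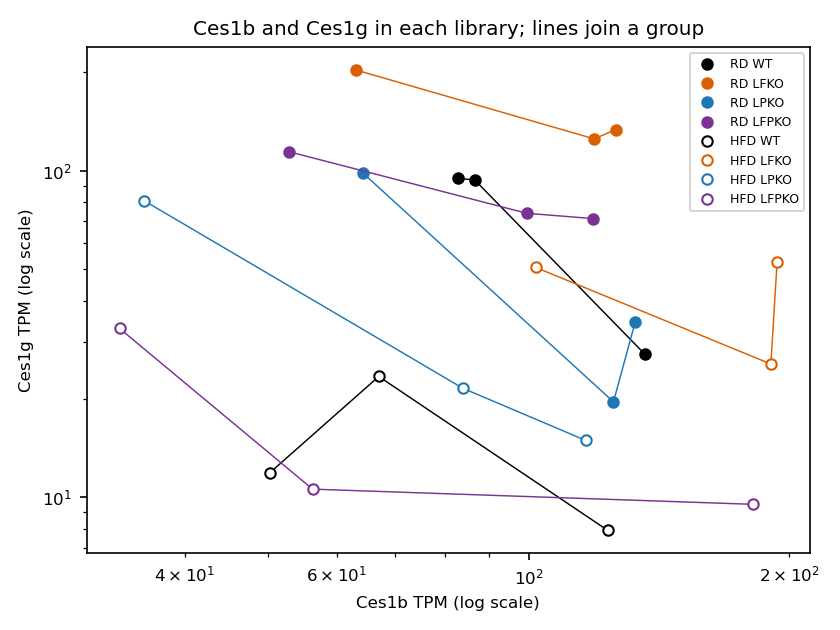
Ces1g TPM against Ces1b TPM (both log scales) in each of 24 libraries, with lines that join the 3 libraries of a group; filled points are RD and open points HFD. The library lowest in Ces1b is the highest in Ces1g in 6 of 8 groups, and the r of the deviations from group means is -0.77.

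The genes whose levels went most like each member were named by the 3 highest Pearson r of log2(TPM + 1) over the 24 libraries, which share their totals. For Ces2a they were Cyp3a11 (0.95), Ephx1 (0.95) and Cyp3a59 (0.95), a pair of cytochrome P450 genes and an epoxide hydrolase of drug metabolism. For Ces1d they were Acot13 (0.95), a thioesterase, Acss3 (0.95) and Idh1 (0.95), and for Ces1f Esd (0.96), an esterase, Hibadh (0.95) and Aplp2 (0.95). Ces1e was followed by Syap1 (0.98), Slc25a16 (0.97) and Gcsh (0.97), and Ces2e by M6pr (0.97), Pcbd1 (0.95) and Sypl (0.95). Ces1c went with Dpy30 (0.91), Gas6 (0.91) and Wdr83os (0.90), and Ces1g with Gas6 (0.87), Mrps22 (0.87) and Prxl2a (0.85). For Ces1b they were Surf6 (0.92), Iqcc (0.77) and Tnnt1 (0.72), for Ces3a Xbp1 (0.76), Gbp11 (0.75) and Nos1ap (0.72), and for Ces4a Nrp1 (0.89), Adgrv1 (0.80) and Mup2 (0.75).

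Among the 10 other carboxylesterase genes 4 were tested and the means of the others over all libraries stayed under 1 TPM. Ces2c, a hydrolase of acylglycerols, had 22.3, 28.5 and 27.0 TPM in RD WT livers, 53.0, 61.0 and 58.4 TPM in RD LPKO and 69.7, 73.8 and 58.2 TPM in RD LFPKO livers. It rose in both (1.12 ± 0.28, adjusted p = 0.0209 in LPKO and 1.34 ± 0.28, adjusted p = 0.00497 in LFPKO). Ces2c shares 42.9% of its words with the pseudogene Ces2d-ps. Ces2c also rose in HFD LFPKO against HFD LFKO (1.37 ± 0.28, adjusted p = 0.00305), as did Ces2b (1.45 ± 0.42, adjusted p = 0.0282). Ces2g rose in RD LFKO (0.66 ± 0.16, adjusted p = 0.0403). The HFD raised Ces2b in WT (1.51 ± 0.42, adjusted p = 0.0137) and LFPKO (1.42 ± 0.42, adjusted p = 0.0164) livers and Ces3b in LFPKO (0.73 ± 0.23, adjusted p = 0.0272), and Ces2c fell in LFKO (-0.98 ± 0.28, adjusted p = 0.0350), a call lost after rescaling. Ces2b was at 1.15 to 4.51 TPM in HFD WT and at 0.0345 to 0.142 TPM in RD WT livers, and like Ces4a it passed the filter through its HFD levels.

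Neutral lipid hydrolases outside the family, 19 of 20 tested, held 5 genes lower and 0 higher in RD LFPKO livers against WT, beside 3.45% of all genes lower and 4.00% higher. In HFD LFPKO against WT 4 were lower and 0 higher, beside 1.47% and 1.62% of all genes. Abhd6 and Nceh1, hydrolases of monoacylglycerol and of cholesteryl ester, were lower in HFD LFPKO than in HFD LFKO livers (Abhd6 -1.67 ± 0.17, adjusted p = 1.03e-06, Nceh1 -1.46 ± 0.21, adjusted p = 9.47e-05). In that comparison 8 fell and 0 rose, beside 8.74% and 1.85% of all genes, with a median of -0.41 against -0.13 over all genes, and after rescaling 7 fell and 1 rose. On the RD, Abhd6 fell in LPKO livers (-1.06 ± 0.17, adjusted p = 4.46e-04), where 1 of 19 fell and 0 rose, beside 2.33% and 3.52% of all genes. After rescaling 5 fell and 1 rose, with 952 genes called in all in place of 617. In HFD LFKO against WT 4 rose, beside 12.7% of all genes, among them Lipa, the lysosomal acid lipase (1.03 ± 0.21, adjusted p = 0.00571), and after rescaling 1 rose and 1 fell. In WT livers on the HFD 7 fell, among them Lipa (-1.29 ± 0.21, adjusted p = 4.96e-04), beside 29.8% of all genes, and 2 fell after rescaling. The list's median there was -0.31 and that of all genes tested -0.29.

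Other esterases of drugs and serum, 13 of 15 tested, held 0 called genes for LFKO against WT on the RD by limma, with 2 at an unadjusted p under 0.05. In HFD LFKO against WT 8 rose and 0 fell, beside 12.7% and 0.730% of all genes, among them Bche, butyrylcholinesterase (0.95 ± 0.19, adjusted p = 0.00529), and Acot2, a mitochondrial thioesterase (1.55 ± 0.26, adjusted p = 0.00162), and after rescaling 4 rose. In WT livers on the HFD 9 fell and 0 rose, beside 29.8% and 1.05% of all genes, and 5 fell after rescaling. The list's median there was -0.62 and that of all genes tested -0.29. In HFD LFPKO against LFKO 5 fell, beside 8.74% of all genes, among them Bche (-0.99 ± 0.19, adjusted p = 0.00161), and after rescaling 5 fell and 1 rose. The last list held 14 receptors and factors known to act on carboxylesterase genes or on lipid and drug metabolism. Of these Nr1i2, the drug-sensing pregnane X receptor, fell on the HFD in WT (-0.54 ± 0.16, adjusted p = 0.0172) and LFPKO livers (-1.17 ± 0.16, adjusted p = 9.32e-05). In WT 4 of the 14 fell and 0 rose, beside 29.8% and 1.05% of all genes, and the list's median of -0.24 stood beside -0.29 for all genes tested. After rescaling none of the 14 was called there, with Nr1i2 at -0.21 with an adjusted p of 0.391. Nr1i2 was also lower in HFD LFPKO than in HFD LFKO livers (-0.87 ± 0.16, adjusted p = 8.96e-04). There 3 of the 14 fell and 0 rose, beside 8.74% and 1.85% of all genes. For the HFD in LFPKO livers 4 of the 14 fell and 0 rose, beside 24.9% and 1.35% of all genes.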

How the data were processed

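Mouse liver RNA in 24 libraries, 8 groups of 3, was analysed. The deposited table holds gene TPM computed by the authors. kallisto, GRCm38 and mm10 are listed, per the submitters' processing notes. Neither a version nor an annotation was named in the sources used here. TPM keep no counts, so the precision rests on the spread of 3 libraries. A line without a name, 0.0104% to 0.0250% of the named TPM, was left out.

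Values were taken as log2(TPM + 1), and a gene entered the tests when its mean over all libraries reached 1 TPM (10551 of 34945). All 24 libraries entered 1 limma fit (version 3.58.1, R 4.3.3) of the 8 group means, with 16 residual degrees of freedom and a variance trend. The 17 comparisons were adjusted by Benjamini-Hochberg over all genes tested in each. p-values are two-sided. The fit was tested on simulated data. Positions and transcripts are from GENCODE M21 (GRCm38) and promoter windows from RefSeq, which need not match the authors' annotation. Alignments used Biopython 1.88 and figures matplotlib 3.10.9 in Python 3.11.15.

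The members and gene lists were chosen with earlier results of these data known. All 10 members were named, with the 3 genes of highest correlation to each (predicted, Rik, clone and Gm names left out), and from each list up to 4 genes of smallest adjusted p in a comparison. The alternatives tried were median-of-ratios scaling, removal of Mup and mitochondrial transcripts, a pseudocount of 0.1, testing all genes, a minimum mean of 5 TPM, a fit of the compared groups alone, the replicate number as a block, and removal of each library in turn. Summed subfamily levels were also fitted after the data were seen, and their tests are not reported because they score the members as a set.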

Additional observations from a re-analysis of the deposited data

Results flagged for a closer look

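The change of Ces4a with PPARα loss was called different between the diets under the chosen settings, but not under several others. The log2 fold change of LPKO against WT was lower on the HFD than on the RD by a difference of -2.17 ± 0.44 (limma interaction term, adjusted p = 0.0442). Its levels were 0.384, 0.390 and 0.331 TPM in RD WT livers, 0.221, 0.278 and 0.0969 TPM in RD LPKO, 8.89, 11.0 and 4.26 TPM in HFD WT and 0.607, 0.455 and 0.958 TPM in HFD LPKO livers. The RD libraries of both genotypes lie between 0.0969 and 0.390 TPM, where the log2(TPM + 1) scale holds differences small. The call was lost with a pseudocount of 0.1, without the filter, with the replicate block and in 10 of 12 fits that left out 1 library. Ces4a also passed the filter of a mean of 1 TPM only through its level in HFD WT.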

How the results depend on the processing

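Each count of called members was recomputed under the alternatives, and none of the called changes turned its direction. After each count, parentheses hold the genes called in all, then those called under the main settings. With median-of-ratios scaling the count on the RD was 3 for LFKO (389, 176) and 2 for LFPKO against WT (1322, 786). There it was 1 for LFPKO against LFKO (885, 536). On the HFD it was 2 for LPKO against WT (727, 499) and 1 for LFPKO against LPKO (126, 37). For the diet in LPKO it was 1 (701, 1910). Without Mup and mitochondrial transcripts it was 2 for LFKO (297, 176) and 2 for LFPKO against WT on the RD (1246, 786). It was 1 for the diet in LPKO (753, 1910). With the compared groups alone it was 4 for LFKO (431, 176) and 2 for LFPKO against WT on the RD (682, 786). It was 2 for LFPKO against LFKO on the RD (756, 536) and 1 for LFKO against WT on the HFD (140, 1420). For the diet in LPKO it was 1 (1336, 1910). A mean TPM of at least 5 removed Ces4a. This gave 0 for LPKO (497, 499) and 0 for LFPKO against WT on the HFD (251, 326), and 0 for LPKO by diet (14, 18). Without a filter the diet in LPKO gave 1 (1381, 1910) and LPKO by diet 0 (10, 18). A pseudocount of 0.1 gave 0 for LPKO by diet (23, 18). Where not stated, the cause was not tested. The replicate block gave 0 for LPKO by diet (8, 18), where Ces4a kept -2.17 at an adjusted p of 0.0648 by limma. It changed no other count by over 1.5 times. The numbers do not pair the libraries: of 84 same-numbered pairs 12 had an r over 0.1 (range -0.23 to 0.39), and 11 of 24 libraries went best with their own number. Leaving out 1 library gave counts of 0 to 1 for LFKO and 0 to 1 for LFPKO against WT on the RD, 1 to 5 for LFKO, 1 to 3 for LPKO and 1 to 2 for LFPKO against WT on the HFD. It gave 2 to 4 for LFPKO against LFKO and 0 to 1 for LFPKO against LPKO on the HFD, 4 to 7 for the diet in WT, 1 to 2 in LFKO, 1 to 2 in LPKO and 5 to 7 in LFPKO, and 0 to 1 for LFKO and 0 to 1 for LPKO by diet. For the fits that left out 1 library the genes called in all are not given, so those counts lack this background. A library left alone or in a pair is assumed to vary like the other groups. With 3 libraries a group and no read counts, levels near those of Ces4a on the RD cannot be given a counting error.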
